A study of Mus musculus with 4 samples.

Results

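The adipogenic genes described here are 10 genes that mark or drive the making of fat cells, among 25239 gene symbols counted in primary mouse chondrocytes, the cells that build cartilage. They were taken by symbol, and all 10 were found. They comprise the transcription factor genes Pparg and Cebpa, the lipid genes Lpl, Cd36, Fabp4, Plin1 and Cidec, and Adipoq, Cfd and Lep, which encode proteins that fat cells secrete. Both control libraries came from Tiki2 fl/fl mice, whose Tiki2 gene (symbol Trabd2b) is flanked by recombination sites. Both conditional knockout (cKO) libraries came from Tiki2 fl/fl mice that also carry Col2a1-Cre/ERT, a tamoxifen-inducible Cre driven from the collagen II gene and so active in cells that use its promoter. All 4 were treated with 4-hydroxytamoxifen, which activates this Cre. The sources used here state no age, strain, dose or time of treatment.

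Tiki2 is a membrane protease that inactivates Wnt proteins, and the study asks how its loss changes cartilage through Wnt/β-catenin signalling. Chondrocytes and fat cells both descend from mesenchymal progenitors. In adipogenesis, as known from mouse preadipocyte lines, C/EBPβ and C/EBPδ act early and switch on PPARγ and C/EBPα. PPARγ and C/EBPα then maintain each other and turn on the genes for taking up, binding and storing lipid. Wnt/β-catenin signalling is known to hold back PPARγ and C/EBPα in preadipocytes.

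The libraries held between 66750140 (control replicate 1) and 78873054 counts (cKO replicate 2). Control replicate 1 stood apart: it had 112185 counts of Xist, the RNA of the inactive X in female cells, and 0 of the Y-linked Ddx3y, while the other 3 libraries had 36 to 171 and 11073 to 12085. Trabd2b measured 427 and 405 CPM (counts scaled to a library size of 1000000) in controls and 296 and 374 in cKO, so transcript remained in both cKO cultures. Its log2 fold change was -0.38 ± 0.11 (SE), with an edgeR adjusted p of 0.148 and a DESeq2 adjusted p of 0.00743. Counts per gene symbol do not tell intact from recombined transcripts. The chondrocyte markers Col2a1, Acan and Sox9 were present in every library, with 5545 to 17327 CPM of Col2a1. No control carries the Cre, and an effect of the Cre itself and one of losing Tiki2 cannot be told apart. With these Xist and Ddx3y counts the controls did not come from 1 animal. For the cKO libraries no label says whether animals or cultures were separate. All p-values therefore rest on the library-to-library spread alone, which in cKO may be technical. Tests compared cKO with control in 15522 genes by the edgeR quasi-likelihood test, called at a Benjamini-Hochberg adjusted p under 0.05.

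In outline, Cebpa and the 6 genes Lpl, Cd36, Fabp4, Plin1, Adipoq and Cfd were at 1.74 to 3.65 times the control mean in cKO, with both cKO libraries above both controls. Pparg was at 1.10 times with overlapping groups, Cidec, the lowest of those detected, also had overlapping groups, and Lep was not detected. None of the 9 members tested passed edgeR (0 called, against 1.3% of all genes tested in either direction), and 7 had an unadjusted p under 0.05, all higher in cKO, against 8.36% of genes tested. DESeq2 called 6 of the 9 higher, against 3.34% of genes, and limma-voom called 0. The 9 had at least 58 counts in every library, so each was countable in both groups.

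**Figure D1:**
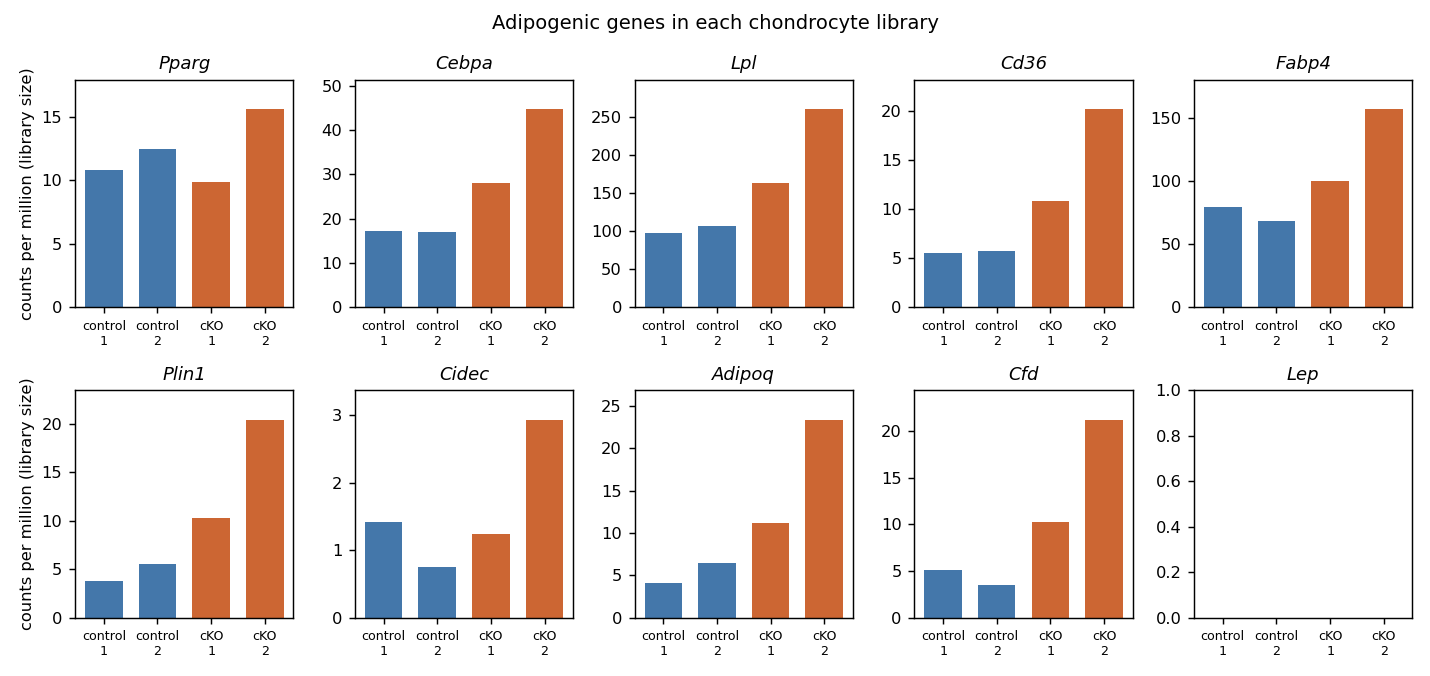
CPM, scaled by library size, of the 10 adipogenic genes in the 2 control (blue) and 2 cKO (orange) libraries, one bar per library and a separate vertical axis from 0 for each gene. In 9 genes cKO replicate 2 is the highest bar, and Lep is at 0 throughout.

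Cebpa encodes C/EBPα, one of the pair of transcription factors at the centre of fat cell differentiation. It had 1154 and 1305 counts in the controls and 2152 and 3526 in cKO, or 17.3 and 16.9 CPM against 28.2 and 44.7 CPM. The controls were nearly equal and both cKO libraries were well above them. The log2 fold change was 1.03 ± 0.20 (SE; 95% interval 0.53 to 1.52; edgeR adjusted p = 0.0765, DESeq2 adjusted p = 3.2e-05). In bulk RNA, more cells of a type and more RNA per cell cannot be told apart, here or for the genes below.

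Pparg encodes PPARγ, the nuclear receptor that fat cell differentiation requires. It had 10.8 and 12.5 CPM in the controls and 9.89 and 15.6 CPM in cKO. Replicate 1 of cKO was the lowest library and replicate 2 the highest, with the controls between them. The log2 fold change was 0.06 ± 0.22 (SE), with a 95% interval from -0.46 to 0.59 and an edgeR adjusted p of 0.917. It was -0.29 without cKO replicate 2 and 0.34 without cKO replicate 1, so the sign rested on which cKO library was used. The interval of Pparg overlapped that of Cebpa between 0.53 and 0.59, and the difference between the genes was not tested.

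Pparg is transcribed from several starts, of which RefSeq (GRCm38.p6) gives 3, and the counts are per gene symbol, so the fat-enriched PPARγ2 and the broader PPARγ1 transcripts could not be separated. The 250 bases before each start were searched, on both strands, for the C/EBP core TTGCNNAA, the TATA box TATAAA and the PPAR response element, taken as a direct repeat of AGGTCA with 1 base between. Windows were found for 8 of the 10 genes, 11 in all, and none for Lpl or Fabp4. The C/EBP core was in 4 of the 11, against 9.56% of 32851 promoter windows, the TATA box in 2 (12.4%), and the PPAR element in 0 (0.0335%). The windows with the core were Pparg start 3, Plin1, Cidec start 2 and Lep. Those of Cebpa, Adipoq, Cfd and Cd36, all higher in both cKO libraries, had none. The single AGGTCA, which the PPAR element contains, was in 3 (14.0%). A match is a run of letters and not a measured site. The 4 windows below are shown because they set the pair of regulators beside a lipid-coat gene that was higher in both cKO libraries and a gene that was never detected; capitals mark the C/EBP core or, in Cebpa, the TATA box.
Pparg, start 3, chr6:115421816-115422065, plus strand: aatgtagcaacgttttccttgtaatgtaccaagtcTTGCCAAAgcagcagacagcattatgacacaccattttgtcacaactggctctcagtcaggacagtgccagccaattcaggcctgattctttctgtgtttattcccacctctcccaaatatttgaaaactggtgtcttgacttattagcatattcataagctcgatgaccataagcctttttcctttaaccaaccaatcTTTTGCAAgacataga
Cebpa, chr7:35119043-35119292, plus strand: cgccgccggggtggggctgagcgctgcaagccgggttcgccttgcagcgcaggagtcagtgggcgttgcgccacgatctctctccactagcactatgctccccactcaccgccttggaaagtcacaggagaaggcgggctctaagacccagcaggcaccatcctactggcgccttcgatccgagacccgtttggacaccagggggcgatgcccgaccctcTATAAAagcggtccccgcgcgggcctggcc
Plin1, chr7:79732777-79733026, minus strand: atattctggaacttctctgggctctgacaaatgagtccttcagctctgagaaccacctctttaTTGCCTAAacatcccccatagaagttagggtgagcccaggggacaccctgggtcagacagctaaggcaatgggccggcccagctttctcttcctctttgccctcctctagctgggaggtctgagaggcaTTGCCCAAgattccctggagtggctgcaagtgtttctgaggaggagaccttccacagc
Lep, chr6:29059971-29060220, plus strand: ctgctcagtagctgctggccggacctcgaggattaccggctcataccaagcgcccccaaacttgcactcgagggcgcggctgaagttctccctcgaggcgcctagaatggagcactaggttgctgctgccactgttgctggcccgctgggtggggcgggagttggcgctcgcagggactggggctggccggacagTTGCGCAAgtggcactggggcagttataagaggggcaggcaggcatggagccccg
Both Pparg start 3 and Plin1 hold the C/EBP core at separate places. Lep holds it once, as a palindrome read the same on both strands, 55 to 48 bases before the start, and had no counts in these cells. Cebpa holds a TATA box 30 to 25 bases before its start and no C/EBP core by these letters.

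Lpl and Cd36 act in taking up fatty acids. Lpl encodes lipoprotein lipase, which frees fatty acids from circulating triglyceride. It was the member with the most counts, at 97.7 and 107 CPM in the controls and 163 and 260 CPM in cKO. The groups were separate by more than the distance between the controls, but by less than that between the cKO libraries. The log2 fold change of Lpl was 0.98 ± 0.20 (SE, edgeR adjusted p = 0.0782, DESeq2 adjusted p = 0.034). Cd36, a fatty acid translocase of the cell surface, had 5.54 and 5.68 CPM in the controls and 10.8 and 20.2 CPM in cKO. The controls were nearly equal and the cKO libraries differed 1.86-fold from each other. Its log2 fold change was 1.40 ± 0.28 (SE; edgeR adjusted p = 0.0792, DESeq2 adjusted p = 7.0e-05).

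Fabp4 encodes the fatty acid binding protein of fat cell cytoplasm. It had 79.4 and 68.6 CPM in the controls and 100.2 and 157 CPM in cKO, without overlap. The log2 fold change of 0.73 ± 0.19 (SE) was the smallest among the members whose groups were separate, with an edgeR adjusted p of 0.135 and a DESeq2 adjusted p of 0.175. Fabp5, a related binding protein that is expressed beyond fat cells, had 166 and 140 CPM in the controls and 136 and 157 CPM in cKO, with overlapping groups.

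Plin1 and Cidec encode proteins of the lipid droplet surface. Perilipin 1, the product of Plin1, guards the stored lipid from lipases. Plin1 had 3.79 and 5.56 CPM in the controls and 10.2 and 20.4 CPM in cKO, so the lower cKO library was still above the higher control. Its log2 fold change was 1.64 ± 0.35 (SE; edgeR adjusted p = 0.0868, DESeq2 adjusted p = 5.0e-05). Cidec, whose product helps droplets fuse, had only 95 and 58 counts in the controls and 95 and 231 in cKO, or 1.42 and 0.75 CPM against 1.24 and 2.93 CPM. One cKO library lay between the controls and the other above both, and the 95% interval of the log2 fold change of 0.88 ran from -0.43 to 2.18.

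Adipoq encodes adiponectin, a hormone made almost only by fat cells. It had 271 and 501 counts in the controls and 855 and 1838 in cKO, or 4.06 and 6.48 CPM against 11.2 and 23.3 CPM. The groups did not overlap, and the libraries within each group also differed, 1.60-fold in controls and 2.08-fold in cKO. Its log2 fold change was 1.64 ± 0.38 (SE; edgeR adjusted p = 0.104, DESeq2 adjusted p = 0.000119). Cfd encodes adipsin, a complement protease secreted by fat cells, and had the largest fold of the members. It had 5.14 and 3.49 CPM in the controls and 10.3 and 21.2 CPM in cKO, a log2 fold change of 1.80 ± 0.36 (SE; 95% interval 0.92 to 2.68; edgeR adjusted p = 0.0785, DESeq2 adjusted p = 1.0e-05). The control that was higher for Adipoq was the lower one for Cfd.

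Lep encodes leptin, the hormone by which fat tissue signals its stores. It had 0 counts in all 4 libraries, and a floor of 3 counts allows up to 0.038 to 0.0449 CPM, for counting error only. It was therefore not tested, and no fold is given. Its receptor gene Lepr had 2.29 and 1.10 CPM in the controls and 3.87 and 3.93 CPM in cKO (log2 fold change 1.14 ± 0.38 SE; edgeR adjusted p = 0.202).

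**Figure D2:**
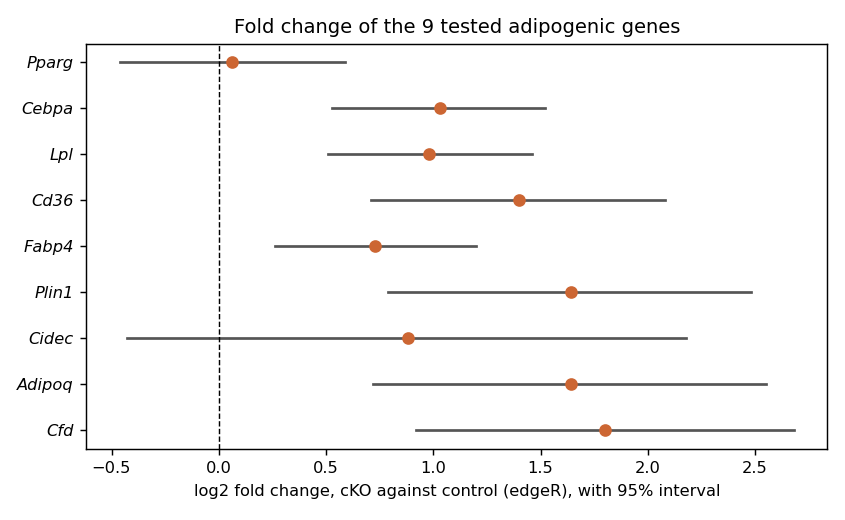
Log2 fold change of cKO against control for the 9 adipogenic genes tested (edgeR, orange points) with 95% intervals (lines) and a dashed line at 0. The intervals of Pparg and Cidec span 0 and those of the other 7 lie above it, before adjustment for the number of genes tested.

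Compared per length, as CPM per kilobase of the principal transcript, the members spanned a wide range of levels. In controls Fabp4 was highest at 82.6 ± 8.48 CPM per kb (SD, n = 2, as for the levels that follow), followed by Lpl at 24.9 ± 1.60 CPM per kb. Pparg (6.58 ± 0.664) and Cebpa (6.51 ± 0.109) did not differ beyond their spread on this scale, nor did Cfd (4.68 ± 1.26) and Adipoq (4.08 ± 1.33), nor Plin1 (1.66 ± 0.445) and Cd36 (1.65 ± 0.0285). Cidec was lowest of those detected, at 0.632 ± 0.277 CPM per kb. In cKO, Fabp4 (143 ± 44.8) and Lpl (51.4 ± 16.5) stayed at the top, and Cfd (17.1 ± 8.36), Cebpa (13.9 ± 4.46) and Adipoq (13.3 ± 6.63) came next without differing beyond their spread. Pparg followed at 7.21 ± 2.28 CPM per kb. For scale, Col2a1 was at 3075 CPM per kb in controls and 1318 in cKO, so the fat-cell genes remained minor transcripts beside cartilage collagen.

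The members also differed between the cKO libraries, all in the same direction. In every one of the 9, cKO replicate 2 was at least 1.5 times cKO replicate 1 after TMM scaling, a count made after the values were seen, while 7.33% of all genes tested showed such a ratio. The ratios of CPM ran from 1.57 for Fabp4 to 2.36 for Cidec. The median log2 ratio of replicate 2 to replicate 1 was 0.87 over the 9 in cKO and 0.04 in controls, against 0.00 over all genes in each. The summed level of the 10 was 225 and 227 CPM in the controls and 345 and 565 CPM in cKO, of which Lpl gave 43.4% to 47.3% and Fabp4 27.8% to 35.3%. Trabd2b had 296 CPM in cKO replicate 1 and 374 CPM in replicate 2, and its relation to the members was not tested. Col2a1 was at 7907 CPM in cKO replicate 1 and 5545 CPM in replicate 2.

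**Figure D3:**
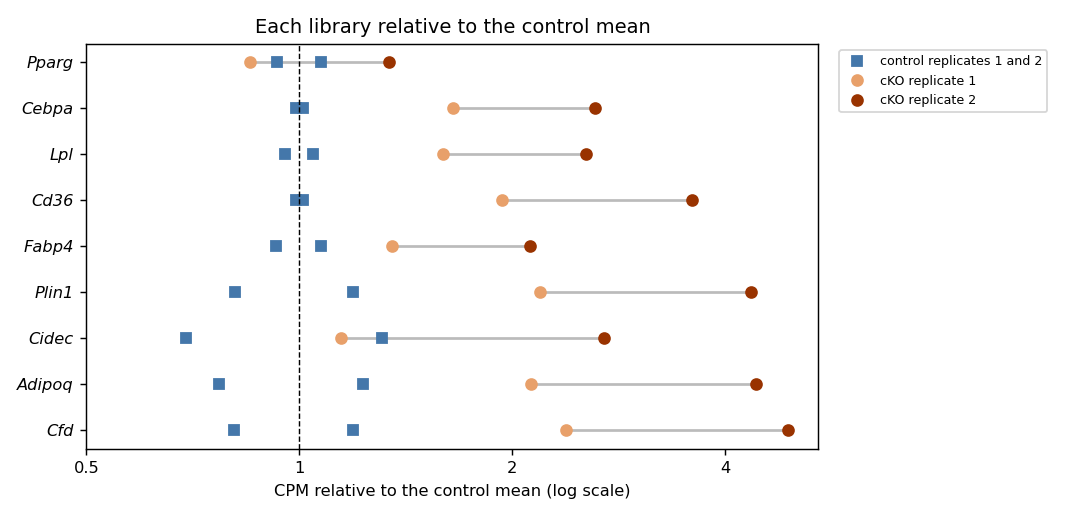
CPM of each library divided by the control mean, on a log axis, for the 9 adipogenic genes detected; squares are the control replicates and circles cKO replicates 1 (light) and 2 (dark). For 7 genes both circles lie to the right of both squares, and the dark circle is farther right for all 9.

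The fold changes depended on the library left out. Both cKO libraries were above both controls in 7 of the 9 tested members, against 35.0% of all genes tested. In none of the 9 were both below (16.7% of genes). These shares use CPM without the TMM factors, which were 0.98 and 0.98 in controls and 1.01 and 1.03 in cKO. TMM scaling would thus lower cKO values relative to controls. The median log2 fold change of the 9 was 1.03, against 0.00 over all genes tested. Without cKO replicate 1, edgeR called 7 members higher (1.95% of genes were), with log2 fold changes from 1.01 for Fabp4 to 2.22 for Cfd. Without cKO replicate 2 it called Lpl alone, at 0.62 (edgeR adjusted p = 0.0189; 0.282% of genes were called higher), and Cidec was at 0.14. Without control replicate 1, which leaves libraries that all have Ddx3y counts, it called 0 members (0.00623% of genes were called higher). The values were then 2.1 for Cfd, 1.39 for Plin1, 1.38 for Cd36, 1.34 for Adipoq, 1.04 for Cebpa, 0.91 for Lpl and 0.84 for Fabp4. Without control replicate 2 it also called 0 (0.0375% of genes), at 1.55 for Cfd and 2.02 for Adipoq. A group left with 1 library is assumed to vary like the other.

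Of 72 other genes of fat storage in 7 lists, 67 were tested, of which 1 rose and 3 fell, where 1.3% of all genes were called, and the median log2 fold change was 0.13. DESeq2 called 10 higher and 7 lower (7.47% of all genes were called by it), and limma-voom called 8 (333 of all 15522 genes). Over all genes tested, DESeq2 called 518 higher (3.34%) and 642 lower. An unadjusted p under 0.05 was found above 0 in 1297 (8.36%) and below 0 in 1379. These values, with the 1.3% of edgeR, are the background of every list below. Among 16 further regulators of adipogenesis none was called by edgeR, 3 had an unadjusted p under 0.05 above 0 and 3 below, and limma-voom called 2. With DESeq2, 1 was higher and 2 were lower. The median was 0.05. Cebpb and Cebpd, which encode the early C/EBP factors, were lower in both cKO libraries, at 121 and 122 against 106 and 91.8 CPM for Cebpb and 99.97 and 100.4 against 84.2 and 82.0 CPM for Cebpd (edgeR adjusted p = 0.11 and 0.0571, DESeq2 adjusted p = 0.00837 and 0.000508). Rxra, the partner receptor of PPARγ, had 82.8 and 76.9 CPM in the controls and 104 and 118 CPM in cKO (edgeR adjusted p = 0.0638, DESeq2 adjusted p = 0.000318).

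Of 9 inhibitors of adipogenesis none was called by edgeR or limma-voom and 1 by DESeq2, 3 had an unadjusted p under 0.05, and the median log2 fold change was 0.22. Zfp521, a zinc finger repressor of the fat cell fate, had a log2 fold change of 0.28 ± 0.07 (SE; edgeR adjusted p = 0.122). Nr2f2, an orphan nuclear receptor, was at 0.43 ± 0.14 and Ddit3, which encodes the C/EBP inhibitor CHOP, at -0.80 ± 0.22 (edgeR adjusted p = 0.182 and 0.148). Dlk1, the preadipocyte protein Pref-1, had 15.6 and 20.0 CPM in the controls and 15.2 and 26.8 CPM in cKO, with overlapping groups.

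Of 10 droplet protein genes tested, 1 fell and none rose by edgeR, with a median log2 fold change of 0.08. DESeq2 called 2 lower, and limma-voom called 2. The gene that fell by edgeR was G0s2, which encodes an inhibitor of the triglyceride lipase ATGL. It went from 31.5 and 30.3 CPM in controls to 18.7 and 20.3 CPM in cKO (log2 fold change -0.73 ± 0.09 SE; edgeR adjusted p = 0.03). Hilpda, a hypoxia-induced droplet protein that also inhibits ATGL, was at -0.63 ± 0.11 (edgeR adjusted p = 0.0576, DESeq2 adjusted p = 0.000299). Plin3, a perilipin of many cell types, was at 0.09 ± 0.06 (edgeR adjusted p = 0.4965). Of 7 lipolysis genes none was called by edgeR or limma-voom, DESeq2 called 2 higher, 3 had an unadjusted p under 0.05, and the median was 0.38. Pnpla2, the gene of ATGL itself, had 26.1 and 24.8 CPM in the controls and 33.3 and 52.9 CPM in cKO (edgeR adjusted p = 0.156). Lipe, hormone-sensitive lipase, had 13.8 and 15.4 CPM against 17.6 and 33.7 CPM, and Adrb3, the β3-adrenergic receptor of fat cells, 1.42 and 0.401 CPM against 2.24 and 4.88 CPM (edgeR adjusted p = 0.246 and 0.213).

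In fatty acid uptake 1 of 9 genes tested rose and none fell by edgeR, with a median log2 fold change of 0.04. DESeq2 called 3 higher, and limma-voom called 1. Angptl4, a PPAR target whose product inhibits lipoprotein lipase, went from 76.4 and 77.96 CPM to 104 and 114 CPM (log2 fold change 0.43 ± 0.06 SE; edgeR adjusted p = 0.0422). Vldlr, a lipoprotein receptor, was at -0.71 ± 0.17 and Cav1, caveolin 1, at 0.46 ± 0.12 (edgeR adjusted p = 0.113 and 0.138, DESeq2 adjusted p = 0.125 and 0.0102). Gpihbp1, which carries lipoprotein lipase across capillary endothelium, had 0 counts throughout. Among 7 triglyceride synthesis genes tested edgeR and limma-voom called none and DESeq2 called 2 higher, 3 had an unadjusted p under 0.05, and the median was 0.17. Gpd1, which makes the glycerol backbone, had 9.41 and 8.94 CPM in the controls and 18.1 and 35.2 CPM in cKO, a log2 fold change of 1.47 ± 0.29 (SE; edgeR adjusted p = 0.0745). Agpat2 was at 0.42 ± 0.10 and Gpam at -0.21 ± 0.08, both enzymes of glycerolipid assembly (edgeR adjusted p = 0.105 and 0.242).

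Among 9 genes of adipokines and their receptors tested, 2 fell and none rose. Apln, which encodes the peptide apelin, went from 78.98 and 84.97 CPM to 53.7 and 57.2 CPM (log2 fold change -0.63 ± 0.07 SE; edgeR adjusted p = 0.0289). Nampt, an enzyme of NAD synthesis also secreted as visfatin, went from 179.6 and 179.9 CPM to 147 and 140.4 CPM (log2 fold change -0.39 ± 0.06 SE; edgeR adjusted p = 0.0434). Rbp4, a retinol carrier, was at -0.51 ± 0.09 (edgeR adjusted p = 0.0589, DESeq2 adjusted p = 0.000228), and the list median was -0.10. Without control replicate 1 or without control replicate 2 none of the 4 called pathway genes passed, and 19 of the pathway genes were called without cKO replicate 1 (4.9% of all genes were).

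**Figure D4:**
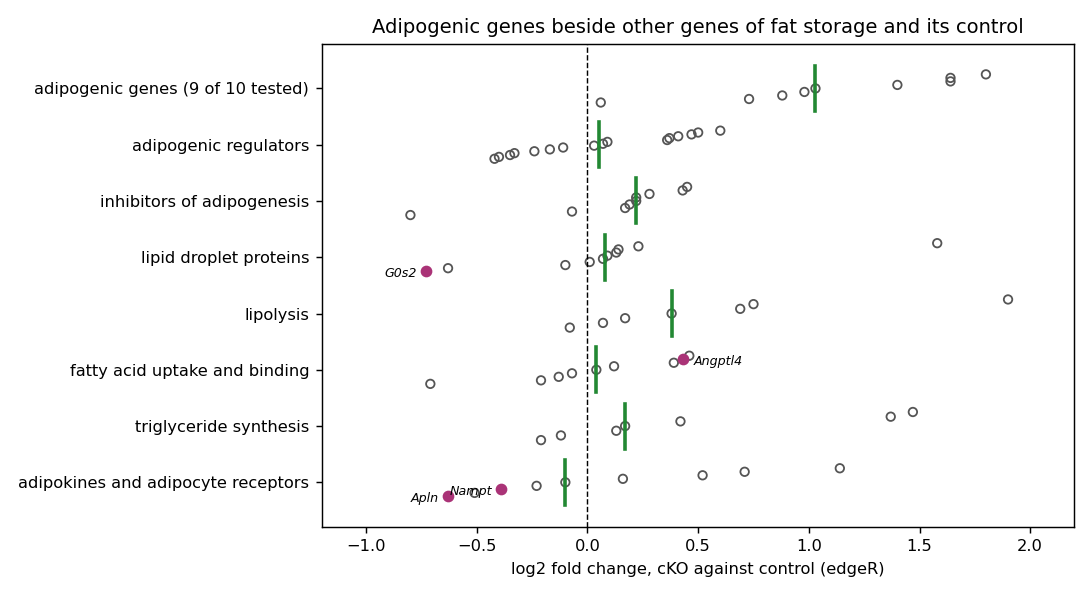
Log2 fold change of cKO against control (edgeR) for the adipogenic genes and 7 lists of other genes of fat storage, one circle per tested gene, with the list median as a green bar; filled circles passed an adjusted p under 0.05. The adipogenic genes have a median of 1.03 and no filled circle, and the medians of the other lists lie between -0.10 and 0.38.

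Markers of other cell types were read in the same libraries. Of 10 further markers of mature fat cells, 6 of them also in the lists above, 9 were tested. None was called by edgeR (1.3% of genes were) or limma-voom, and DESeq2 called 1 higher (3.34% of genes). An unadjusted p under 0.05 was found for 3, all higher in cKO (8.36% of genes). All 9 log2 fold changes were above 0, with a median of 0.89. The 95% intervals of Retn, Plin4, Thrsp, Aqp7, Acvr1c and Slc7a10 spanned 0, while those of Adrb3, Lipe and Car3 did not. The median log2 ratio of replicate 2 to replicate 1 was -0.97 in controls and 0.96 in cKO, so replicates differed about as much as groups. The summed level of the 10 markers, mostly Plin4, was 112 and 115 CPM in the controls and 122 and 187 CPM in cKO. Car3, a carbonic anhydrase of fat and muscle, had 0.404 and 2.43 CPM against 4.71 and 5.95 CPM (edgeR adjusted p = 0.266). Pck1, a fat and liver gene of glycerol synthesis, was near 0, with 0 counts in a control and a cKO library. Of 8 brown fat genes 6 were tested and none was called by edgeR or limma-voom. DESeq2 called 1 higher (3.34% of genes), and 1 had an unadjusted p under 0.05, higher in cKO (8.36%). Both were Dio2, a deiodinase that activates thyroid hormone (7.33 and 8.50 CPM against 10.5 and 17.0 CPM). Ucp1, the defining uncoupling protein, had 0 counts in every library.

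Of 11 progenitor and stromal markers, 2 rose and none fell, where 1.3% of all genes were called, and the median log2 fold change was 0.68. The value was above 0 in 9 of the 11, the exceptions being Ly6a (-0.15 ± 0.31 SE) and Dpp4 (-0.15 ± 0.44 SE). Ly6a had 233 and 474 CPM in the controls and 296 and 372 CPM in cKO. An unadjusted p under 0.05 was found for 8, all higher in cKO (8.36% of genes), DESeq2 called 5 higher (3.34%), limma-voom called 2, and in 9 both cKO libraries were above both controls (35.0%). Cd34, a surface protein of stromal progenitors, went from 35.9 and 35.9 CPM to 59.7 and 61.7 CPM (log2 fold change 0.69 ± 0.07 SE; edgeR adjusted p = 0.0264). Pdgfrb, a platelet-derived growth factor receptor, went from 307 and 312 CPM to 409 and 437 CPM (edgeR adjusted p = 0.0435), and Thy1, a stromal surface protein, was at 0.88 ± 0.15 (edgeR adjusted p = 0.0571). The summed level of the 11 was 1779 and 1729 CPM in the controls and 2218 and 3008 CPM in cKO. Cxcl12 was the highest of them, at 597 and 376 CPM against 671 and 955 CPM. The summed level was higher in the same libraries as the adipogenic genes, and its part in their values was not tested.

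Macrophages express Cd36, Fabp4 and Lpl, and endothelium expresses Cd36 and Fabp4, so their markers were examined. The 10 macrophage markers summed to 26.6 and 19.6 CPM in the controls and 23.8 and 25.5 CPM in cKO. Cd68, the highest of them, had 12.3 and 8.10 CPM in the controls and 9.54 and 8.14 CPM in cKO. Mrc1 was higher in both cKO libraries, at 1.60 and 1.63 against 2.47 and 2.81 CPM (edgeR adjusted p = 0.313). Itgam had 0 counts in both controls and 6 and 18 in cKO. C1qb was at 0 everywhere and Adgre1 and Ptprc at 0 in 3 of 4 libraries, with the 7 counts of Adgre1 in cKO replicate 2. The 9 endothelial markers summed to 4.96 and 5.85 CPM in the controls and 6.01 and 6.40 CPM in cKO, with Emcn at 0 everywhere and Cdh5, Cldn5 and Tie1 at 0 in 3 of 4. Of the 5 macrophage and 4 endothelial markers tested, none was called by edgeR, DESeq2 or limma-voom, and none had an unadjusted p under 0.05. The 9 muscle markers summed to 4.94 and 35.1 CPM in the controls and 71.1 and 15.4 CPM in cKO, and were thus higher in cKO replicate 1, where the adipogenic genes were lower than in replicate 2. The 10 chondrocyte markers summed to 26222 and 30667 CPM in the controls and 15607 and 11725 CPM in cKO. Of these, 9 fell by edgeR (1.3% of all genes were called). They ran from Col11a1 at -0.78 through Comp, Hapln1, Acan, Col9a1, Col2a1, Chad and Matn1 to Col9a2 at -1.69 (log2 fold changes). Sox9 was the exception by edgeR (log2 fold change -0.38 ± 0.11 SE, edgeR adjusted p = 0.151, DESeq2 adjusted p = 0.013). DESeq2 called all 10 lower (7.47% of genes were called by it), and limma-voom called 9. Their part in the adipogenic values was not tested.

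**Figure D5:**
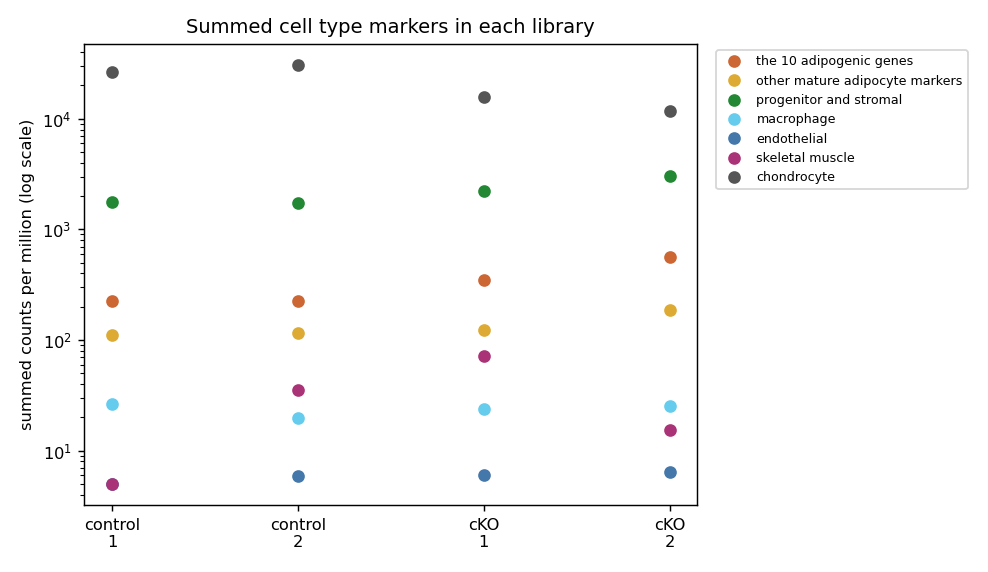
Summed CPM, on a log axis, of the 10 adipogenic genes and of 6 marker lists in each library, one point per list and library; in control replicate 1 the endothelial and muscle points coincide. The adipogenic, mature fat cell and progenitor sums are highest in cKO replicate 2, the chondrocyte sum is lowest there, and the macrophage and endothelial sums stay under 27 CPM.

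Genes with a profile like that of the adipogenic genes were sought among 12146 other genes whose mean log2 CPM was 1 or more. Likeness was the root-mean-square distance between profiles over the 4 libraries, each centred on its own mean. The profiles were log2 of TMM-scaled CPM with 0.5 added, which narrows the ratios of genes at few CPM, such as Slco1a6. The nearest to the mean of the 9 tested members was Slco1a6, an organic anion transporter family member, at a distance of 0.059 against a median of 0.59 over all candidates. It had 1.05 and 1.07 CPM in the controls and 2.21 and 3.93 CPM in cKO. Hlf, a transcription factor of the clock-controlled PAR family, followed at 0.094, with 3.34 and 3.74 against 6.44 and 9.98 CPM. Ksr1, a scaffold of the Raf-MEK kinase cascade, was at 0.106, Ppp1r1a, an inhibitor of protein phosphatase 1, at 0.117, and AW551984 at 0.121. None of the 5 was called, with edgeR adjusted p-values from 0.0887 for Hlf to 0.167 for Ksr1.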

How the data were processed

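RNA from 4 cultures of primary mouse chondrocytes was sequenced after poly(A) selection, random priming and no stated strand-marking step, per the labels' protocols. The authors deposited a table of raw read counts by gene symbol, all integers. Per the submitters' processing notes, the tools were HISAT2 2.2.1 and StringTie 2.1.7, with Trim Galore 0.6.7 and FastQC 0.11.9, on build mm10. Their roles and order are not stated. The sources used here do not give the counting tool, annotation, strand setting or treatment of multiply mapping reads, so reads of overlapping or similar genes may be shared out unseen.

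Genes were kept by filterByExpr (minimum count 10), scaled by TMM factors and tested by edgeR 4.0.16 (R 4.3.3; glmQLFit and glmQLFTest), cKO against control with no covariate, with Benjamini-Hochberg adjustment over 15522 genes. CPM use the library size, except where TMM scaling is stated. Standard errors were derived from the fold change and its F statistic, and intervals are 95%. On simulated data for this comparison (15443 genes), 192 of 200 genes changed 4-fold were recovered. Alternatives were DESeq2 1.42.0, limma-voom (limma 3.58.1), other scalings and filters, a replicate block and each library left out. Total counts were 66750140 to 78873054 per library, and floors cover counting error only. Positions and transcript lengths come from GENCODE M21 (mm10), promoters from RefSeq (GRCm38.p6). In GENCODE, exons of 1 other gene, Gm45091 on the strand opposite Cebpa, overlap a member, and that gene has no row in the table.

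The members and the lists were chosen with earlier results of these data known. Named were all members, the checks of labels, up to 3 genes per list by p-value with any called gene, and the 5 nearest profiles. Fabp5, Dlk1, Lepr, Pck1, Ly6a, Dpp4, Cxcl12, Itgam and markers at 0 were added after their values were seen.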

Additional observations from a re-analysis of the deposited data

How the results depend on the processing

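Of 99 member fold changes under alternatives, 83 kept their direction and side of the threshold, 14 kept direction and became called, and 2 reversed, both of Pparg: -0.29 without cKO replicate 2 and -0.04 without control replicate 1 (range over libraries left out -0.29 to 0.34). The members called, 0 in the main analysis, numbered 6 with DESeq2 and 0 to 7 when a library was left out, and 0 with limma-voom, library sizes alone, no filter, a minimum count of 50 or counts divided by 4. The pathway genes called, 4 in the main analysis, numbered 17 with DESeq2, 8 with limma-voom, 8 with a minimum count of 50, 8 with counts divided by 4, 0 with the replicate block and 0 to 19 when a library was left out. Over all genes, 202 were called (61 higher, 141 lower), 239 with library sizes alone (116 higher, 123 lower), 1160 with DESeq2, 333 with limma-voom, 371 with counts divided by 4, 300 with a minimum count of 50, and 5 to 782 when a library was left out. The summed CPM of the members was 2.01 times higher in cKO, and 1.53 to 2.50 times when a library was left out. The deviations of same-numbered libraries from their group means had a correlation of -0.12 over 15522 genes. With 2 libraries a group this is a single weak value that cannot show whether the numbers pair them, and no label says so. The replicate block left 23 genes and 0 members called. The crossed replicate block, chosen after seeing the data, called 564 genes, 11 pathway genes and 5 members. With 2 libraries a group, fold changes have wide intervals. The cause of these differences was not tested.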
